A study of Mus musculus with 2 samples.

Results

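Integrin chains and tetraspanins were compared between 2 mouse osteosarcoma cell lines. LM8, a highly metastatic subline, was set against Dunn, its parental line, which the labels call non-metastatic. The lines carried no treatment, and both were grown in minimal essential medium with 10% serum and 1% non-essential amino acids. Total RNA from each, 10 µg, was labelled with biotin and hybridised to 1 Affymetrix mouse genome array, so each line is 1 sample with no replicate. The labels name neither the number of cultures pooled nor the passage of either line. In bulk RNA of this kind, fewer cells with a transcript and less transcript per cell cannot be told apart.

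Members were the probe sets whose single annotated gene symbol is an integrin alpha or beta chain (Itga or Itgb followed by a number or by v, d, e, l, m or x) or a tetraspanin (Tspan followed by a number, or Cd9, Cd37, Cd53, Cd81, Cd82 or Cd151). The rule found 109 of 45037 non-control probe sets. They belong to 48 genes, 23 integrin chains with 53 probe sets and 25 tetraspanins with 56. Itga11, Itgad and Tspan7 fit the names but had no named probe set and were not analysed here.

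Integrins are transmembrane receptors made of 1 alpha and 1 beta chain, and the pair decides which matrix protein or counter-receptor a cell can hold. Alpha chains are grouped by ligand into those that bind the RGD peptide of fibronectin, vitronectin and related proteins, those that bind laminins, those that bind collagens, and those of leukocytes. Tetraspanins span the membrane repeatedly, gather into membrane microdomains and bind integrins and other proteins laterally there. In bone-forming and osteosarcoma cells, beta1 and alpha v integrins carry much of the attachment to matrix.

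The signals are linear MAS5 intensities. Each array's floor was its median signal, 18.96 in LM8 and 21.06 in Dunn, and a probe set was measured when at least 1 array lay above its floor. Lower signals were raised to the floor before taking the log2 ratio of LM8 over Dunn, and a fold that rests on a floor is given as at least that size. Each gene was represented by 1 chosen probe set, the brightest measured one by mean log2 signal, and it was counted as higher or lower when the lines were at least 2-fold apart there. Folds were taken within a probe set and not between probe sets, because each probe set has its own binding strength. Choosing the brightest probe set, summing markers and setting readings beside olfactory receptors do compare probe sets, so they are rough guides. No p-value is given, since each line has 1 array. Both lines had all 7 listed osteoblast lineage genes that are on the array above the floor (summed signals of 14615 in LM8 and 15292 in Dunn, mostly from the collagen genes Col1a1 and Col1a2), and of these Ibsp and Pth1r were 2-fold lower in LM8, with log2 ratios of -1.31 and -1.18. Of 43 olfactory receptor probe sets, a class silent in most tissues, 0 lay above the floor in LM8, which allows a share of up to 6.98%, and 5 did in Dunn (11.6%), so signals just above the Dunn floor carry little weight.

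Of the 48 member genes, 36 were measured, 31 of them above the floor in LM8 and 34 in Dunn. Itgav, Tspan13 and Tspan5 were at least 2-fold higher in LM8, whereas Itga5, Itga8, Itgb2 and Tspan11 were at least 2-fold lower, and 29 lay between. These are 8.33% and 11.1% of the measured members, against 6.51% higher and 8.84% lower among all 11830 measured genes, so the share called was near the background in both directions. At the probe set level, 6 of 67 measured were higher and 10 lower, against 5.91% and 7.79% of all measured probe sets. Both shares were above those of all probe sets, more so the lower one. Among 30 measured integrin probe sets 3 were higher and 8 lower, with 2 lower ones each from Itga5, Itga8 and Itgb5. Probe sets of 1 gene are not independent. The members' median log2 ratio, with floored genes at their bound, was -0.25, beside -0.08 for all measured genes. Integrin chains had a median of -0.24 over 16 genes and tetraspanins one of -0.25 over 20. With the arrays scaled on the bacterial hybridisation controls the median of all genes moved to 0.16 and that of the members to -0.00, a constant shift of every gene that leaves the members' distance from all genes, -0.17, as it was. Settings that treat genes differently moved that distance between -0.25, with a lower floor, and -0.07, with a higher floor or averaged probe sets. Under that scaling Itga5 and Itgb2 were no longer 2-fold lower and Itga1 became 2-fold higher. The 2-fold line lay close to several members. Just inside it was Tspan5 at 2.04-fold higher, and just outside were Tspan32 (1.97-fold lower), Itgb5 (1.95-fold lower) and Tspan3 (1.90-fold lower). Cd53, at least 1.98-fold lower on its 1 measured probe set, stayed short of the line only through the LM8 floor. With the floor at the 25th percentile of each array its log2 ratio was -2.89.

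**Figure D1:**
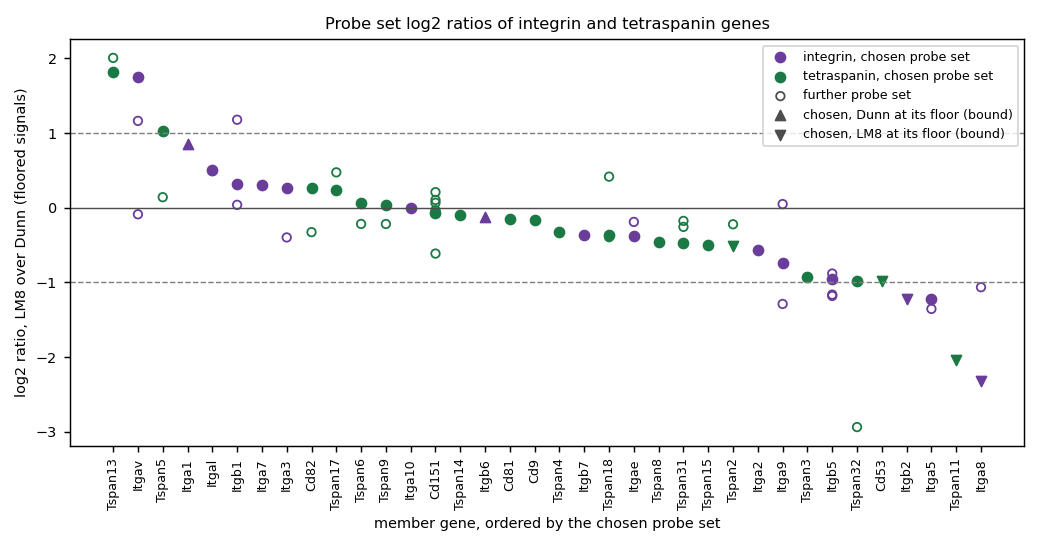
Log2 ratio of LM8 over Dunn (vertical axis, floored signals, 1 array per line) for each of the 36 measured member genes, ordered by the chosen probe set; filled symbols are chosen probe sets, triangles those with an array at its floor, open circles further measured probe sets, and dashed lines mark 2-fold. Tspan13 and Itgav stand at the high end, Itga8 and Tspan11 at the low end, and the open circles show how far probe sets of 1 gene can lie apart.

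Several members had more than 1 measured probe set. How far these lie apart shows differences between probes and transcript forms, and it is no replicate error. Over 20 such member genes the standard deviation of the log2 ratio between probe sets had a median of 0.25, beside 0.30 over 5521 genes of the whole array. In 12 of the 20 all measured probe sets lay on the same side of 0. Of the 5 called genes among them, Tspan13, Itga5 and Itga8 had every measured probe set 2-fold apart in the same direction, while Itgav and Tspan5 did not. Conversely Itga9, Itgb1, Itgb5 and Tspan32 were not called on the chosen probe set but had another probe set that was 2-fold apart.

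The promoters of 5 members are shown because these genes carry the comparison. Itgav and Itgb5 encode the chains of 1 heterodimer and went opposite ways. Tspan13 was higher, and Itga5 and Itga8 lower, on every measured probe set. The windows run from 250 bases before to 50 bases after the annotated start and are RefSeq sequences of GRCm38.p6, written 5' to 3' on the strand of the gene: Itgav at chr2:83724147-83724446 (plus strand), Itgb5 at chr16:33829415-33829714 (plus), Tspan13 at chr12:36042429-36042728 (minus), Itga5 at chr15:103366742-103367041 (minus) and Itga8 at chr2:12301895-12302194 (minus). Capitals mark GC boxes on either strand.
Itgav: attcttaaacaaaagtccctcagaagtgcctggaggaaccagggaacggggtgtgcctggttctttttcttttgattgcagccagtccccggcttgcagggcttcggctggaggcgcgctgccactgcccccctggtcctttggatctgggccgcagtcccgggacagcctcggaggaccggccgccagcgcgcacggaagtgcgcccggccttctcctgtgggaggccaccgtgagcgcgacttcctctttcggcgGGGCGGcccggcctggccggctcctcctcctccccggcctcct
Itgb5: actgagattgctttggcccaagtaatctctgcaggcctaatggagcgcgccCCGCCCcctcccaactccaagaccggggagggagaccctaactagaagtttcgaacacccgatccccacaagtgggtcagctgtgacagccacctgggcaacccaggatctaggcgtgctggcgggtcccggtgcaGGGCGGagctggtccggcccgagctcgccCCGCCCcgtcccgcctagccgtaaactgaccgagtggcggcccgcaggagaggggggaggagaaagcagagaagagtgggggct
Tspan13: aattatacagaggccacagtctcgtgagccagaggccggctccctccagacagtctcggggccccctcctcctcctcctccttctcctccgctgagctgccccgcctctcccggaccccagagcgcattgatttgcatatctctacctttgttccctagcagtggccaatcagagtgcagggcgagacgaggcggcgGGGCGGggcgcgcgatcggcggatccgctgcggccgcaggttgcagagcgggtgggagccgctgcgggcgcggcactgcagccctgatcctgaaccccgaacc
Itga5: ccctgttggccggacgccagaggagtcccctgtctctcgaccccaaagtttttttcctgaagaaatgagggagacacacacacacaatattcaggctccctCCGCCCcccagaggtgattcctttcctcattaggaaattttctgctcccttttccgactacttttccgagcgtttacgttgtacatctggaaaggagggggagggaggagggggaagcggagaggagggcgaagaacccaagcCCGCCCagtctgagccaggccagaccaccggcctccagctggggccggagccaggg
Itga8: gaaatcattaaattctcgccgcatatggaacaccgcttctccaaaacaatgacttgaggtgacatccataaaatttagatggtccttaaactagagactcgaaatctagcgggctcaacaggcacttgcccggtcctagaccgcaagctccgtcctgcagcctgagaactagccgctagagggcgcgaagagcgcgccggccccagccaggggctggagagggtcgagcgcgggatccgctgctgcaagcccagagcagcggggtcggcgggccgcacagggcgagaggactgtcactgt

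A GC box (GGGCGG on either strand), bound by Sp1-family factors, was found 1 time in the Itgav window, 3 times in Itgb5, 1 time in Tspan13, 2 times in Itga5 and not in Itga8, and 35.7% of all 32851 promoter windows of this length hold one. Neither an AP-1 site (TGANTCA, held by 7.81% of windows) nor a TATA box (TATAAA, held by 13.6%) was found in any of the 5 on either strand, and no motifs overlapped. The windows held CpG dinucleotides at counts of 24 in Itgav, 20 in Itgb5, 26 in Tspan13, 13 in Itga5 and 23 in Itga8, against a median of 7 and quartiles of 3 and 20 over all windows, so the Itga5 count lay within the quartiles and that of Itgb5 at the upper one. Each motif or CpG count is a description of these windows and shows no binding.

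Among the beta chains, Itgb1 differed little and Itgb5 was lower in LM8 on each of its probe sets. Itgb1 encodes the beta chain shared by most matrix-binding integrins. Its chosen probe set (1452545_a_at) had a signal of 1003 in LM8 and 809 in Dunn, a log2 ratio of 0.31. A second bright probe set (1426918_at) gave 696 in LM8 and 678 in Dunn, a ratio of 0.04, so both bright probe sets placed the lines close together. A dim one (1427771_x_at), of the kind whose probes can match other transcripts, read 60.6 in LM8 and 26.8 in Dunn, a log2 ratio of 1.18. The 3 other Itgb1 probe sets were under both floors.

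Itgb5 pairs with alpha v in a receptor for vitronectin. Its 4 probe sets read 569, 383, 343 and 344 in LM8, against 1107, 859, 779 and 635 in Dunn in the same order. Every LM8 value was below its Dunn value, by 1.95-, 2.24-, 2.27- and 1.84-fold. The log2 ratio ran from -1.18 to -0.88 over these probe sets, which were read on the same 2 arrays and are no replicates. The chosen probe set fell just short of the 2-fold line, and the gene was called lower when probe sets were averaged or when those with a suffix for shared probes were left out.

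The remaining beta chains were dim. Itgb2, the common beta chain of leukocyte integrins, had 15.9 in LM8, under the floor, and 44.4 in Dunn on its 1 probe set, at least 2.34-fold lower. Itgb7, which pairs with alpha 4 or alpha E in lymphocytes, had 32.0 in LM8 and 41.0 in Dunn, a log2 ratio of -0.36. Itgb6, an epithelial partner of alpha v, read 19.2 in LM8, barely above the floor, and 1.97 in Dunn on its chosen probe set, so no fold can be given for it. Itgb3, Itgb4 and Itgb8 lay under both floors on all their probe sets, with the highest reading 19.1 for Itgb3 in Dunn.

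**Figure D2:**
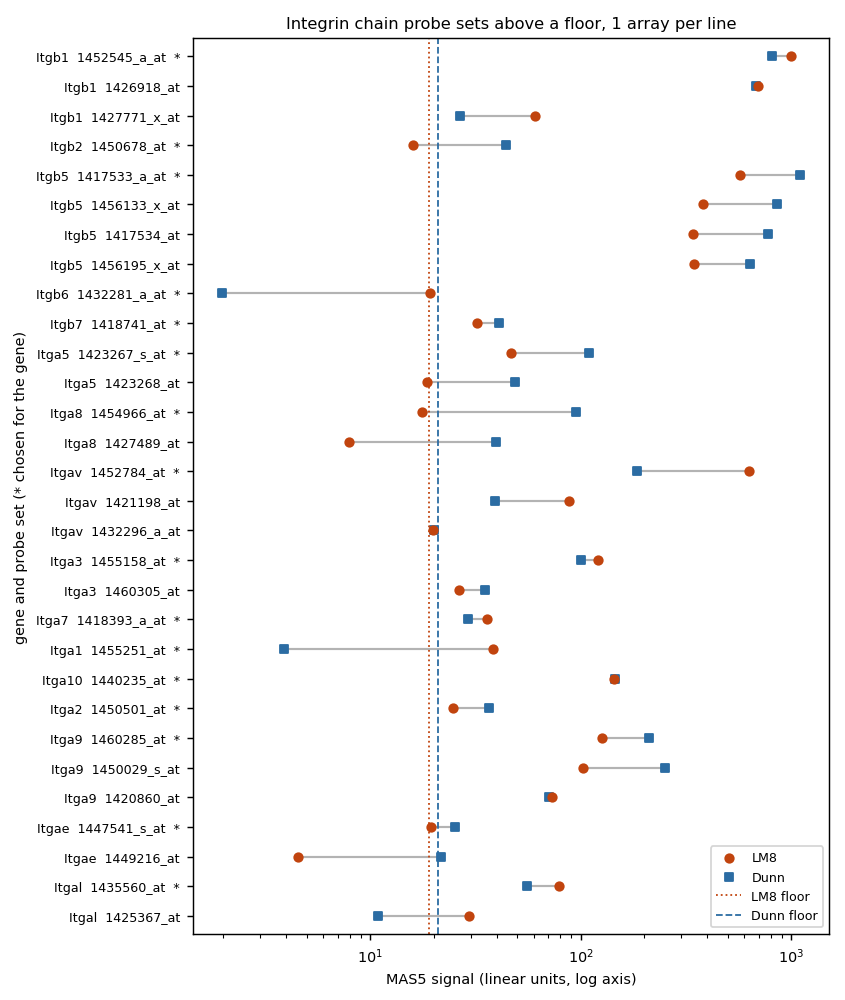
MAS5 signals (horizontal log axis, linear units) of the 30 measured integrin chain probe sets in LM8 (circles) and Dunn (squares), 1 array per line, with a grey line joining the arrays, vertical lines at the array floors and a star at the chosen probe set of each gene. The 2 brighter Itgav probe sets have LM8 to the right and all 4 Itgb5 probe sets have it to the left, while the dimmest Itgav probe set lies at the floors, and the Itga8 and Itgb2 readings of LM8 fall under its floor.

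All 3 RGD-binding alpha chains among the members were at least 2-fold apart, 1 higher (beside 6.51% of all genes) and 2 lower (beside 8.84%). Itga2b, a further RGD-binding chain outside the naming rule, had a log2 ratio of 0.44, and Itga5 lost its call with the arrays scaled on the hybridisation controls. Itgav encodes alpha v, which pairs with several beta chains. It was at 628 in LM8 and 186 in Dunn on its chosen probe set (1452784_at), 3.38-fold higher. A second probe set (1421198_at) read 88.1 in LM8 and 39.4 in Dunn, 2.24-fold higher, and another (1432296_a_at) read 19.8 in LM8 and 20.1 in Dunn, next to the floors. The difference is thus carried by the 2 probe sets with signal well above the floors, and the other 2 probe sets of the gene lay under both.

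Itga5 encodes alpha 5, the chain that with beta1 forms the classical fibronectin receptor. Its probe sets read 46.9 and 18.5 in LM8, against 109.9 and 48.5 in Dunn. Both were lower in LM8, the first by 2.34-fold and the second by at least 2.56-fold with LM8 under its floor. Itga8 encodes alpha 8, a beta1 partner that binds nephronectin and fibronectin. It read 17.6 and 7.92 in LM8, both under the floor, against 94.5 and 39.7 in Dunn, at least 4.99-fold and 2.09-fold lower.

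No measured laminin- or collagen-binding alpha chain was called 2-fold apart, though Itga1 was held short of the line by the Dunn floor. Itga3, a laminin receptor chain, had 121 in LM8 and 101 in Dunn on the chosen probe set and 26.6 in LM8 and 35.0 in Dunn on a dimmer one, with log2 ratios of 0.27 and -0.40 that point opposite ways. Itga7, a laminin receptor chain best known from muscle, had 35.9 in LM8 and 29.2 in Dunn. Itga6 lay under both floors. Neither measured laminin-binding chain was 2-fold apart.

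Of the collagen receptor chains, Itga10, known from cartilage, had 144 in LM8 and 145 in Dunn, a log2 ratio of -0.01. Itga2 was near the floors, at 24.8 in LM8 and 36.7 in Dunn. Itga1 had 38.1 in LM8 and 3.90 in Dunn, under the Dunn floor. Its ratio of at least 1.81-fold stayed short of the 2-fold line only through the floor, and with the floor at the 25th percentile of each array its log2 ratio was 2.72. The second Itga1 probe set was under both floors.

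Itga9, a beta1 partner that binds tenascin and other ligands, had 3 measured probe sets that disagreed. They read 126, 103 and 73.4 in LM8, against 210.2, 251 and 71.0 in Dunn. The first 2 were lower in LM8 by 1.67- and 2.44-fold and the third was level, so the ratio of -0.74 on the chosen probe set was not shared by all probe sets. Itga4, the other member of this class and a receptor chain for fibronectin and Vcam1, was under both floors on all 5 probe sets.

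Leukocyte integrin chains were dim, and no alpha chain of this class was 2-fold apart. Itgal, the alpha chain of LFA-1, had 79.2 in LM8 and 55.8 in Dunn on 1 probe set and 29.6 in LM8 and 10.9 in Dunn on the other. Itgae, the partner of beta 7 in epithelial T cells, had 19.4 and 4.56 in LM8, against 25.2 and 21.6 in Dunn, next to the floors. Itgam and Itgax, which are neighbours too, were under both floors. Of 14 leukocyte marker genes on the array, 4 lay above the floor in LM8 and 6 in Dunn, with summed signals of 200.0 in LM8 and 341 in Dunn. The pan-leukocyte gene Ptprc and the T and B cell genes Cd3e, Cd3g, Cd79a and Cd79b were under both floors, while the myeloid genes Csf1r (26.8 in LM8 and 75.1 in Dunn, with its other probe sets up to a log2 ratio of 0.48) and Lyz2 (1.90 in LM8 and 44.8 in Dunn) were 2-fold lower. Of the 7 measured markers, 6 had a ratio below 0 and 1 above, while 6545 of all 11830 measured genes lay below 0. The 2-fold lower ones were 28.6% of the measured markers, beside 8.84% of all genes. Cd68, Adgre1 and Lyz2 were measured through Dunn alone, and Coro1a, the marker above 0, through LM8 alone. Cd68 and Adgre1, at 26.2 and 23.1 in Dunn, lay under the highest olfactory receptor signal of that array, 29.3. The part of the markers in the lower Itgb2 and the tetraspanin Cd53 was not tested.

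Heterodimers can form only where both chains are made. Of 24 known pairs, 22 had probe sets for both chains. In LM8, 11 pairs had both chains above the floor, and in Dunn 11 as well, 9 of them the same pairs. Those shared were beta1 with alpha 2, 3, 5, 7, 9, 10 and v, alpha v beta 5, and alpha E beta 7. Alpha 1 beta 1 and alpha v beta 6 passed in LM8 alone, whereas alpha 8 beta 1 and alpha L beta 2 passed in Dunn alone. Passing on 1 array only was common. It held for 5252 of 25144 measured probe sets of the whole array, beside 17 of 67 of the members. Some of the pair passes were marginal. Itga7 at 29.2 and Itgae at 25.2 in Dunn lay under the highest olfactory receptor signal of that array, 29.3. In LM8, Itgae at 19.4 and Itgb6 at 19.2 stood barely above the floor of 18.96. The pairs of alpha v with beta 3 and beta 8, both receptors of vitronectin or latent TGF-beta, failed in both lines because their beta chain lay under the floor.

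The count depends on the floor. With the floor at the 75th percentile, a setting chosen for the pairs after seeing the data, 5 pairs passed in LM8 and 6 in Dunn, and with the floor at the 25th percentile 19 passed in LM8 and 17 in Dunn. At the 75th percentile, alpha v beta 1 and alpha v beta 5 passed in both lines and alpha 5 beta 1 in Dunn alone. None of the pairs that passed in 1 line alone at the main floor passed there in either line. At the 25th percentile, alpha 8 beta 1 and alpha L beta 2 passed in both lines. Alpha 1 beta 1 and alpha v beta 6 again passed in LM8 alone. Within the pairs that passed in both lines, the chains of alpha v beta 5 had log2 ratios of 1.76 and -0.96, so they went opposite ways. Those of alpha v beta 1 had 1.76 and 0.31, and those of alpha 5 beta 1 had -1.23 and 0.31. RNA signals of both chains do not measure the receptor at the cell surface.

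**Figure D3:**
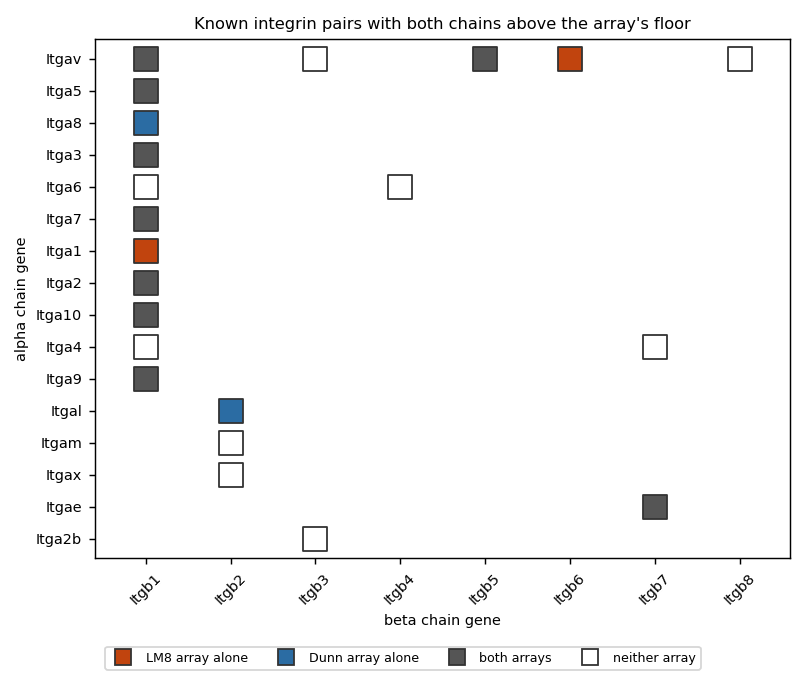
Known integrin pairs by alpha chain (rows) and beta chain (columns), for the 22 pairs with probe sets for both chains; the colour shows whether both chains lay above the array's floor in LM8 alone, Dunn alone, both arrays or neither. The beta1 column is filled for most alpha chains in both lines, with Itga1 in LM8 alone and Itga8 in Dunn alone.

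Tetraspanins best known for binding integrins were close between the lines. Cd9, a partner of beta1 integrins and of the immunoglobulin proteins encoded by Ptgfrn and Igsf8, had 2166 in LM8 and 2439 in Dunn. Cd81, which works with the same partners, had 1698 in LM8 and 1886 in Dunn. Cd151, which binds the laminin receptors directly, had 6 measured probe sets with log2 ratios from -0.61 to 0.21, and 303 in LM8 and 319 in Dunn on the chosen one. Its 4 brighter probe sets ran from -0.07 to 0.10, and the lowest ratio came from a dim probe set at 6.43 in LM8 and 29.0 in Dunn. Cd82, described as a suppressor of metastasis, had 78.3 in LM8 and 65.2 in Dunn on 1 probe set and 32.5 in LM8 and 40.8 in Dunn on the other. None of these 4 was near 2-fold apart, and the probe sets of Cd82 pointed opposite ways. Of the leukocyte tetraspanins, Cd37 was under both floors and Cd53 had 3.38 in LM8, under the floor, and 37.6 in Dunn, at least 1.98-fold lower. The other Cd53 probe set was under both floors and pointed the other way, at 7.28 in LM8 and 1.87 in Dunn.

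**Figure D4:**
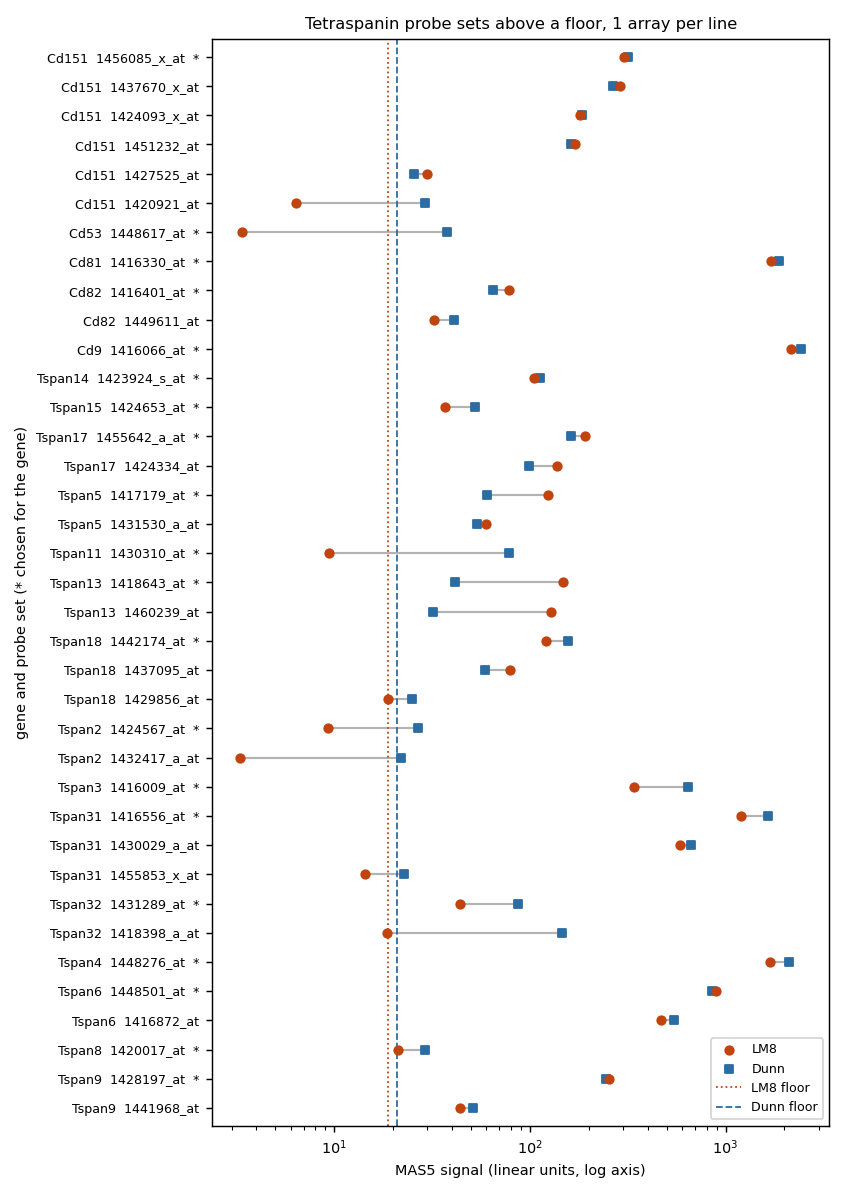
MAS5 signals (horizontal log axis, linear units) of the 37 measured tetraspanin probe sets in LM8 (circles) and Dunn (squares), 1 array per line, with array floors as vertical lines and a star at the chosen probe set of each gene. Cd9, Cd81, Cd151, Tspan6 and Tspan9 have circles and squares nearly on top of each other on their brighter probe sets, and both Tspan13 probe sets have LM8 to the right.

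The TspanC8 group escorts the sheddase Adam10 out of the endoplasmic reticulum. Of its 6 members, Tspan5 was called and Tspan14, Tspan15 and Tspan17 lay between. Tspan5 had 124 in LM8 and 60.7 in Dunn on the chosen probe set, 2.04-fold higher, but 59.6 in LM8 and 54.1 in Dunn on the other, a log2 ratio of 0.14. Tspan17 was higher on both probe sets by less than 2-fold, with 192 and 137 in LM8, against 162 and 98.7 in Dunn. Tspan14 had 105 in LM8 and 113 in Dunn, and Tspan15 had 37.0 in LM8 and 52.5 in Dunn. Tspan10 and Tspan33 were under both floors. Adam10 itself had 506 in LM8 and 606 in Dunn, a log2 ratio of -0.26.

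Among the other Tspan genes, Tspan13 had the highest ratio of the members above the floor on both arrays. It read 148 and 128 in LM8, against 41.7 and 32.0 in Dunn, 3.54- and 4.02-fold higher on its 2 probe sets. Tspan11 had 9.47 in LM8, under the floor, and 78.3 in Dunn, at least 4.13-fold lower, and its 3 other probe sets were under both floors. Tspan32, also called Tssc6 and known from blood cells, read 44.2 and 18.8 in LM8, against 87.2 and 145 in Dunn. Both probe sets were lower, by 1.97-fold on the chosen one and by at least 7.66-fold on the other, so it missed the 2-fold count by the choice of probe set alone.

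Tspan3 had 339.8 in LM8 and 645 in Dunn on its 1 probe set, a log2 ratio of -0.92. Tspan4, known for the migrasomes left behind by moving cells, had 1689.9 in LM8 and 2118 in Dunn, a log2 ratio of -0.33. Tspan31 had 1196, 586 and 14.5 in LM8, against 1657, 663 and 22.7 in Dunn, on its 3 measured probe sets. All 3 were lower in LM8 by less than 2-fold, with log2 ratios of -0.47, -0.18 and -0.26, the last with LM8 under its floor. Tspan6 had 890.2 and 470.4 in LM8, against 851 and 547 in Dunn. Tspan9 had 253 and 44.1 in LM8, against 246 and 51.3 in Dunn. In both genes the chosen probe set was slightly higher and the other slightly lower, by at most 0.22 on the log2 scale in either direction. Tspan18 had 121, 79.2 and 18.9 in LM8, against 156, 59.4 and 24.9 in Dunn, with ratios of -0.36, 0.42 and -0.39 that point opposite ways. Tspan2, best known from oligodendrocytes, had 9.34 and 3.31 in LM8, both under the floor, against 27.0 and 22.1 in Dunn. Tspan8, an epithelial tetraspanin, had 21.1 in LM8 and 29.2 in Dunn. These dim genes lay too near the floors to tell the lines apart, and Tspan1 and Tspan12 were under both. Across the 12 member genes that were not measured, the 23 probe sets read at most 15.1 in LM8 and 19.1 in Dunn.

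Several members are neighbours in the order of protein-coding genes of GRCm38.p6. Tspan11 lies next to Tspan9, with log2 ratios of -2.05 and 0.04. Tspan32 lies next to Cd81, with -0.98 and -0.15. Itga2 lies next to Itga1, with -0.56 and at least 0.86, and Tspan18 next to Cd82, with -0.36 and 0.26. Of these 8 neighbours, only Tspan11 was 2-fold apart on its chosen probe set.

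Genes that work with the members were counted from fixed lists. Of 16 measured integrin activators and inhibitors, 0 were 2-fold higher and 3 were lower (18.8%, beside 8.84% of all genes), with a median of -0.24. The lower ones were Rapgef3, which encodes the cAMP-activated exchange factor Epac1 for Rap1, Dab2, an endocytic adaptor of beta chains, and Tln2, a talin. Rapgef3 had 50.9 in LM8 and 536 in Dunn, 10.5-fold lower, with its 5 probe sets from -3.40 to -0.60. Dab2 had 89.8 in LM8 and 219 in Dunn, and Tln2 had 150.2 in LM8 and 313 in Dunn. Tln1, the main talin of most cells, had a log2 ratio of 0.17 on the chosen probe set, with its 3 probe sets from -0.04 to 1.10, and the kindlin gene Fermt2 and the small GTPase gene Rap1a had 0.72 and 0.75.

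Of 19 measured kinases and adaptors at integrin tails, Vcl was 2-fold higher (5.26%, beside 6.51% of all genes). Parvb and Tns2 were lower (10.5%, beside 8.84%), so both shares were near the background, and the median was -0.15. Vcl, encoding the talin-binding protein vinculin, had 1482 in LM8 and 673 in Dunn, with its other probe set at a log2 ratio of 0.73. Parvb had 10.4 in LM8, under the floor, and 65.5 in Dunn, at least 3.45-fold lower, but its other probe set gave -0.25.

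Among 21 measured integrin ligand genes, 6 were higher (28.6%, beside 6.51% of all genes) and 4 lower (19.0%, beside 8.84%). The median was 0.27. The higher ones were Thbs2, Npnt, Col4a2, Lama5, Lamb1 and Postn, and the lower ones Fn1, Ibsp, Lama4 and Lamb2. Of the higher ones, all but Npnt had Dunn under its floor on the chosen probe set, which was thus measured through LM8 alone. Col4a2 had 57.9 in LM8 and 11.5 in Dunn, and another Lamb1 probe set had a log2 ratio of 0.39. Vtn, the vitronectin gene, and Vcam1, a counter-receptor of alpha 4 beta 1, were under both floors. Npnt encodes nephronectin, the ligand of alpha 8 beta 1. It had 1448 in LM8 and 542 in Dunn, and its 5 probe sets ran from 1.19 to 1.57 in log2 ratio, while Itga8 was lower. Fn1, the fibronectin gene, had 1268 in LM8 and 4522 in Dunn, lower as was Itga5, the alpha chain of its classical receptor. Of the other RGD-binding alpha chains among the members, Itga8 was lower too and Itgav was higher. Thbs2, which encodes thrombospondin 2, had 572 in LM8 and 19.5 in Dunn, under the floor, at least 27.2-fold higher, and Postn, which encodes periostin, a ligand of alpha v integrins, had 86.0 in LM8 and 8.70 in Dunn, at least 4.08-fold higher. Ibsp, the RGD-bearing bone sialoprotein gene, had 96.6 in LM8 and 239 in Dunn. Among the laminin chains, Lamb2 had 106 in LM8 and 314 in Dunn and Lama4 had 38.1 in LM8 and 82.3 in Dunn, while Lama5 and Lamb1 lay above the floor in LM8 alone.

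Of 15 measured tetraspanin partners, Ptgfrn and Adam17 were higher (13.3%, beside 6.51% of all genes) and Cd36 was lower (6.67%, beside 8.84%). The median was -0.14. Ptgfrn, the immunoglobulin partner of Cd9 and Cd81, had 109.9 in LM8 and 8.23 in Dunn, at least 5.22-fold higher on its 1 measured probe set. Igsf8, the other such partner, had a log2 ratio of -0.38. Adam17, a sheddase that associates with Cd9, had 275 in LM8 and 132 in Dunn, with its 3 probe sets from 0.83 to 1.06. Cd47, which binds alpha v beta 3 and thrombospondins, had 617 in LM8 and 1136 in Dunn, with its 4 measured probe sets from -1.93 to -0.73. Tln1, Fermt2, Rap1a, Adam10, Igsf8, Cd47, Vtn and Vcam1 were singled out after their values were seen, and the lists were chosen with earlier results of these arrays known, so these counts are descriptions.

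**Figure D5:**
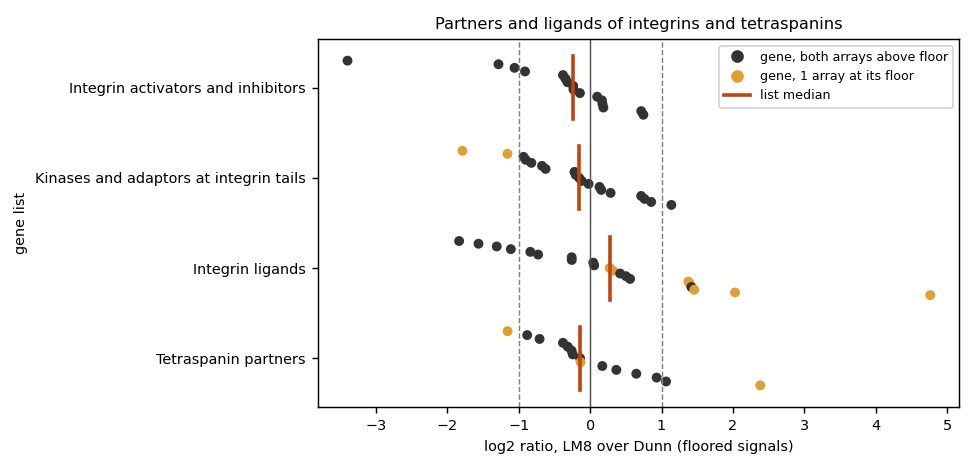
Log2 ratio of LM8 over Dunn (horizontal axis, floored signals, 1 array per line) for each measured gene of 4 lists of integrin and tetraspanin partners, with orange points where an array lay at its floor, a red bar at the list median and dashed lines at 2-fold. Rapgef3 is the point at the far left among the activators and Thbs2 the one at the far right among the ligands.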

How the data were processed

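RNA of LM8 and of Dunn was measured on 1 array each. Per the submitters' processing notes, the authors obtained the deposited intensities with MAS5, on a linear scale, and the version is not given in the sources used here. Both arrays had a 2% trimmed mean of 100.0 and showed no log scale or floor. Per the file headers, chip type, scanner and hybridisation time were the same for both arrays.

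The 64 control probe sets were left out, the other 45037 were put on a common 2% trimmed mean (factors of 1.00), and 25144 were measured. Of the named non-control probe sets, 34945 had 1 gene symbol, 932 had several and were not used, and 9160 further ones were unnamed. Gene identifiers of all 48 members matched the GRCm38.p6 gene table, and no symbol changed. The members, lists and rules were chosen with earlier results of these data known. The text may name any member, and of the other lists mainly the genes 2-fold apart. Alternatives were 3 scalings, 3 settings of the floor, 2 gene summaries and 2 call rules. The precision is limited by the number of arrays. The steps were tested on simulated arrays with planted changes well beyond 2-fold in genes bright in Dunn. That does not test calls near 2-fold or at a floor. Python 3.11.15, numpy 2.4.6, pandas 2.3.3 and matplotlib 3.10.9 were used.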

Additional observations from a re-analysis of the deposited data

How the results depend on the processing

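The counts were 3 members at least 2-fold higher and 4 lower. Raising the floor to each array's 75th percentile gave 1 (Itgav) and 0 among 21 measured members, beside 5.13% and 5.41% of all genes. Lowering it to the 25th gave 6 and 10 among 46, beside 10.2% and 15.4%. Scaling on the hybridisation controls gave 4 higher and 2 lower (Itga8 and Tspan11), so 66.7% of the called members were higher against 42.9%, a shift also seen over all genes (65.9% against 42.4%), and centring on array medians gave 4 and 4. Averaging the probe sets of a gene left 1 higher member, Tspan13, since Itgav then stood at 0.94 and Tspan5 lost its call, and gave 6 lower, Itgb5 and Tspan32 among them. Requiring every probe set to be 2-fold apart also left 1 higher, and a 3-fold rule left 2 lower. Other floors change how many genes are measured, and scaling on the hybridisation controls or array medians shifts every gene by a constant. Averaging brings in further probe sets, among them those at -0.09 for Itgav and 0.14 for Tspan5. Why probe sets of a gene differ was not tested. Floors for the chain pairs were varied after seeing the data. The members' median ran from -0.34 to -0.00 over the alternatives. Over up to 8 alternatives each, no called member changed direction. Itgav and Tspan13 stayed 2-fold apart in 7 of 8, and Itga5 and Tspan5 in 5 of 8. Itga8 and Tspan11 stayed so in 7 of 7 and Itgb2 in 5 of 7. These last 3 genes had LM8 under its floor and were not measured with the floor at the 75th percentile, so that alternative could not test them. Of 273 gene values under an alternative, 13 moved by more than 0.46, the pooled standard deviation between probe sets of a gene, a yardstick of probe and transcript differences only, since there are no replicates. Many of these values could not move that far. The shifts from array medians and hybridisation controls were constants below 0.46, and bright genes keep their ratio under another floor. The count is therefore no measure of stability. No paired analysis was possible because each line has 1 array. Signals near the floor limit the dim members, such as Itgb2, Itgb6, Cd53 and Itga1.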

Other observations

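Family genes outside the naming rule gave few signals. Itga2b, the platelet partner of beta 3, had 60.8 in LM8 and 44.8 in Dunn, a log2 ratio of 0.44, while its partner chain Itgb3 lay under both floors. The uroplakin tetraspanin gene Upk1a had 37.2 in LM8 and 13.2 in Dunn, at least 1.76-fold higher. Itgb2l had 23.5 in both lines, and Itgbl1, Upk1b and Prph2 were under both floors. Markers of platelets, epithelium and endothelium were sparse. Of 5 platelet genes on the array, 2 lay above the floor in LM8 and 1 in Dunn, of 7 epithelial genes 1 in LM8 and 3 in Dunn, and of 6 endothelial genes 2 in each line. The endothelial gene Vwf was well above both floors, at 67.3 in LM8 and 152 in Dunn, 2.26-fold lower. Kdr, the other endothelial gene above the floors, had 28.0 in both lines.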
